A study of Rattus norvegicus with 18 samples.

Results

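The 9 secreted growth factors followed were Bdnf, Ntf3, Gdnf, Nrtn, Fgf1, Fgf2, Mdk, Ptn and Pdgfa. The members were every probe set (a group of short DNA probes that together measure 1 transcript) whose platform annotation gives 1 of these symbols. That gave 12 probe sets of 9 genes, out of 31042 probe sets and 14217 named genes. Fgf1 had 3 probe sets, Bdnf had 2 and each other gene had 1. The symbol alone decided which probe sets were members, but the 9 genes were chosen with earlier results of these data known. Their share of calls is therefore not that of a set chosen blind.

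RNA of rat spinal cord material had been measured on 18 single-channel Affymetrix arrays, 6 for each of 3 groups. All 18 descriptions open with the entry "14 NT", which was not interpreted. The first group was control material with nothing named as added and no time given. The second group had received 10 ng/mL of bone morphogenetic protein (BMP), labelled 4d and read here as 4 days, with the family member not named. The third had received 10 ng/mL of ciliary neurotrophic factor (CNTF), also labelled 4d. The labels give no strain, age, genotype, cell type or culture and do not tell when the controls were harvested. Each title holds a number, 1 to 6, found on 1 array per group, and arrays are named by group and number. No label states whether the 6 arrays of a group are separate animals or cultures. The p-values therefore refer to array-to-array spread only, some of which may be technical.

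BDNF and NT-3 (the product of Ntf3) are neurotrophins, which bind Trk receptor tyrosine kinases and the receptor p75, encoded by Ngfr. GDNF and neurturin (Nrtn) bind a GFR-alpha co-receptor and signal through the tyrosine kinase Ret. FGF-1 and FGF-2 act on FGF receptors together with heparan sulfate. Midkine (Mdk) and pleiotrophin (Ptn) form a family of heparin-binding factors for which Ptprz1 is a receptor, and PDGF-A (Pdgfa) signals through Pdgfra, which in the spinal cord marks oligodendrocyte precursors.

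The windows before the annotated start are shown for Nrtn and Pdgfa, picked on their values as the members furthest up and furthest down in the BMP comparisons. RefSeq (GRCr8) held 15 windows for 8 of the 9 members. Each sequence runs 5′ to 3′ and gives the 250 bases before the start, for Nrtn chr9:1670229-1670478 on the minus strand and for Pdgfa chr12:20759116-20759365 on the plus strand. Capitals mark GGCGCC, a sequence that BMP-regulated SMAD proteins can bind.
Nrtn: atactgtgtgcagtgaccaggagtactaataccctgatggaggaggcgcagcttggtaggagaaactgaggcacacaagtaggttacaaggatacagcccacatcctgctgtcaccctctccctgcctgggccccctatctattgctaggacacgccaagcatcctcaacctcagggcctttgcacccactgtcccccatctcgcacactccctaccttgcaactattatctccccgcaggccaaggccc
Pdgfa: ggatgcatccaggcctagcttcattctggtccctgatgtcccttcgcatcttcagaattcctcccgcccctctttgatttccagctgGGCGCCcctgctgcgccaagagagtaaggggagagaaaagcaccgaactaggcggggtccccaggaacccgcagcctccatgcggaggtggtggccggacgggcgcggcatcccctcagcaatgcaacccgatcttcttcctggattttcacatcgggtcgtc
GGCGCC was found once in the Pdgfa window and not in the Nrtn window, and 8.69% of all 33469 promoter windows of this length held it. TTCNNNGAA, a sequence that STAT proteins can bind, was in neither, and 7.67% of all windows held it. Among the 15 member windows, 3 held GGCGCC (2 overlapping windows of Bdnf and that of Pdgfa) and 3 held TTCNNNGAA (Bdnf, Fgf1 and Fgf2). Both strands were searched, each motif reads the same on both, and no member window held both motifs. These are descriptions of the letters, not of binding.

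Levels are given as deposited linear intensities or, where stated, as log2(intensity + 116.655). The constant is the 20th percentile of the whole table, whose median was 746.4. Log2 differences and folds are on this scale and understate the change of dim genes. Bdnf (1 of its 2 probe sets), Nrtn, Mdk, Ptn and Pdgfa had a mean intensity over the 18 arrays above the median of the table. The probe sets of Ntf3, Gdnf, Fgf1 and Fgf2 lay below the median on all 18 arrays, and so did the second Bdnf probe set.

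**Figure D1:**
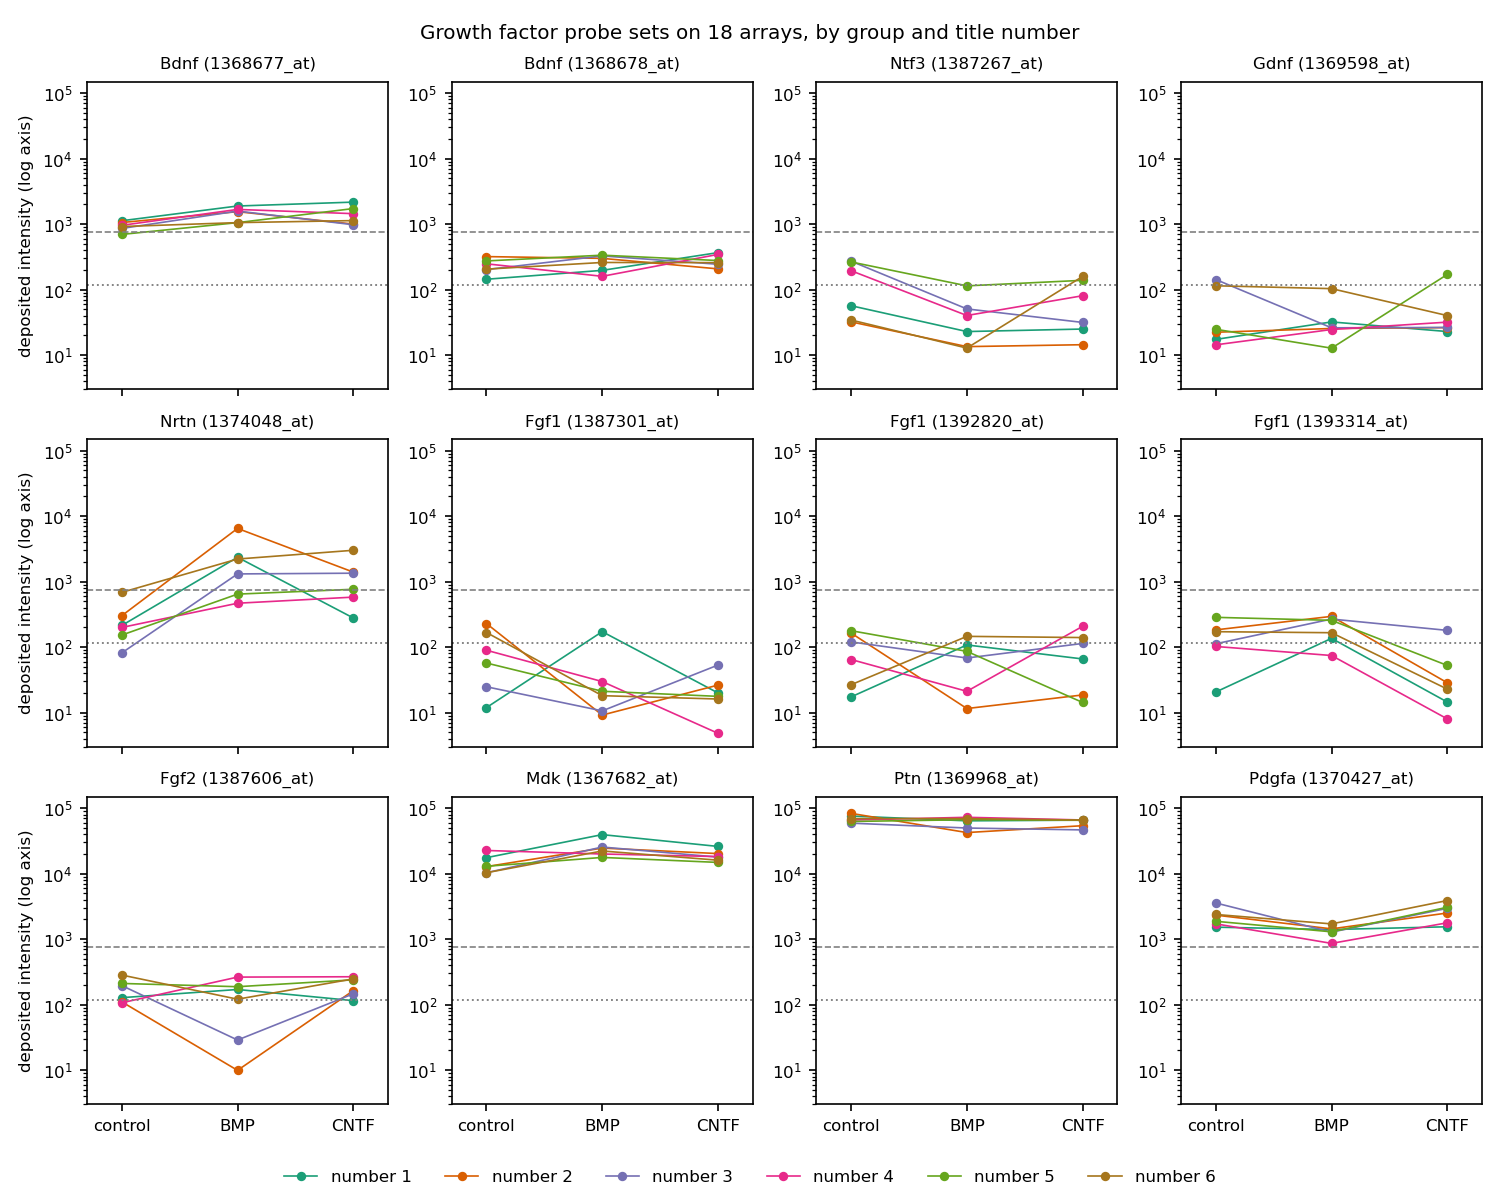
Deposited intensity (log axis) of the 12 probe sets in the control, BMP and CNTF groups, each line joining the 3 arrays of 1 title number. The dashed line is the median of the table (746.4) and the dotted line its 20th percentile (116.655). The Nrtn line rises from control to BMP and from control to CNTF in all 6 numbers, and the Pdgfa line falls from control to BMP in all 6.

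With BMP, Nrtn and Mdk rose against the controls. Nrtn was 4.84-fold and Mdk 1.73-fold higher than in the controls, and no member fell past the threshold (limma adjusted p under 0.05 over all 31042 probe sets). With CNTF, no member was called in this fit, which leaves out the title number. Between the treatments, Pdgfa was 1.84-fold lower with BMP than with CNTF, and 1 dim Fgf1 probe set was higher. Thus 2 of 12 probe sets (16.7%) were called for BMP against control, where 6.01% of all probe sets were called, 0 of 12 for CNTF against control, where 2.32% were called, and 2 of 12 for BMP against CNTF, where 6.23% were called. By direction, 3.44% of all probe sets were called higher and 2.57% lower with BMP, 1.58% and 0.738% with CNTF, and 3.24% and 2.99% for BMP against CNTF. Arrays of the same number differed in 1 direction in all 6 numbers for 4, 1 and 3 of the 12 probe sets in these comparisons, beside 17.9%, 14.5% and 18% of all. For 0 of 12 were the groups free of overlap, beside 2.83%, 1.97% and 2.95% of all. An unadjusted p under 0.05 was found for 5 of 12 with BMP, 5 of 12 with CNTF and 2 of 12 between them, beside 18.6%, 11.4% and 17.6% of all probe sets. The median log2 difference of the 12 probe sets was -0.13, 0.05 and -0.05 in these comparisons, beside 0.01, -0.01 and 0.01 over all probe sets. The treatments are each compared with the same 6 controls.

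With the title number as a replicate block, which compares arrays of the same number, 4 of 12 probe sets were called for BMP against control (16.7% of all probe sets), 1 of 12 for CNTF against control (7.57%) and 2 of 12 for BMP against CNTF (15.1%). The calls added were Bdnf (higher) and Pdgfa (lower) with BMP, and Nrtn (higher) with CNTF.

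**Figure D2:**
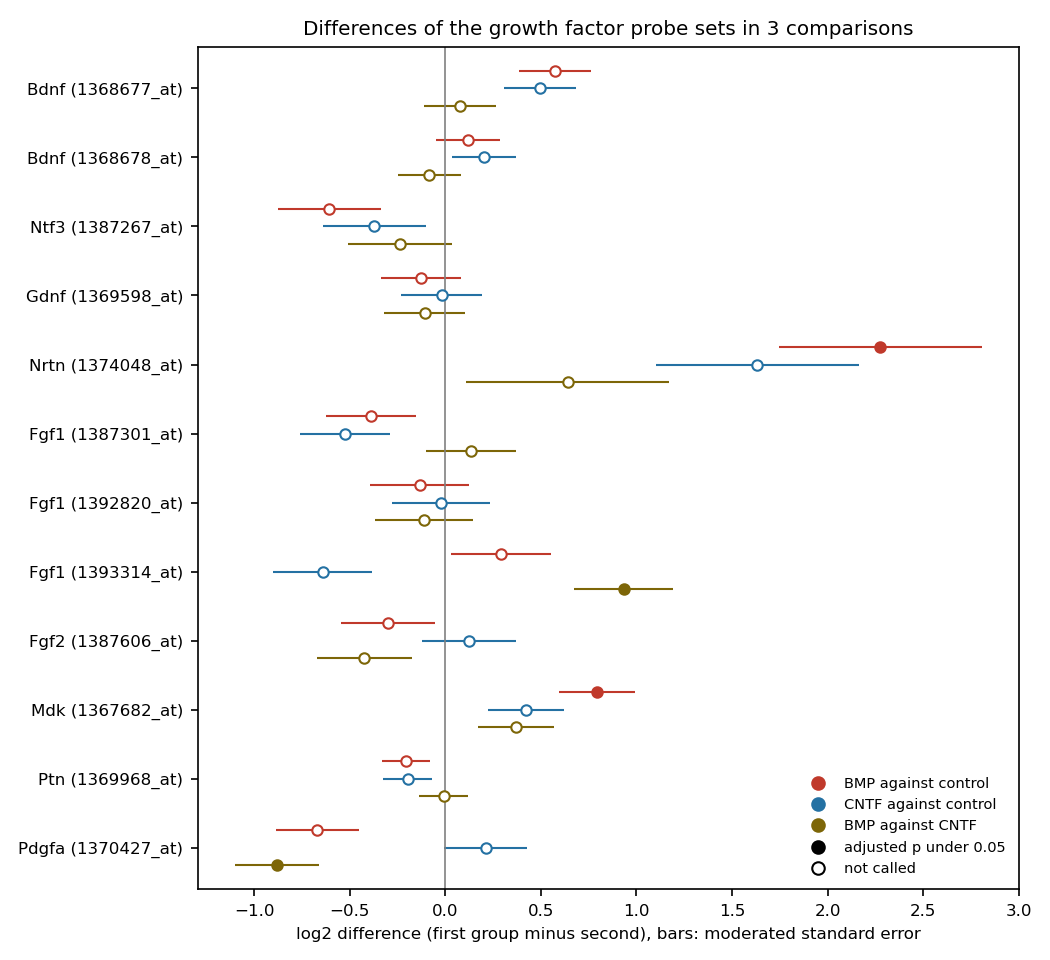
Log2 differences of the 12 probe sets (x axis, bars are limma's moderated standard errors) in the 3 comparisons, with filled points for an adjusted p under 0.05 without the block. Filled points are Nrtn and Mdk for BMP against control, and Pdgfa and 1 Fgf1 probe set for BMP against CNTF.

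Among the ligands of Ret, Nrtn, a survival factor for several kinds of neuron, rose with BMP, and with CNTF it passed the threshold with the block and not without it. Its intensity in control arrays 1 to 6 was 214.0, 301.7, 81.6, 199.5, 152.7 and 685.1. In BMP arrays 1 to 6 it was 2351, 6486, 1310, 467.5, 644.2 and 2211. In CNTF arrays 1 to 6 it was 278.5, 1396, 1344, 579.4, 763.4 and 3007. The highest control was the array of number 6, and the groups overlapped: BMP arrays 4 and 5 and CNTF arrays 1 and 4 lay below it. The control array was nevertheless the lowest of the 3 arrays in every number.

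The Nrtn level rose from 8.46 ± 0.68 to 10.73 ± 1.27 log2 with BMP (mean ± SD, n = 6 each), a difference of 2.27 ± 0.53 (limma standard error, adjusted p = 0.0136; 0.00102 with the block). The size depended on the pseudocount, at 2.81 with 1 and 1.54 with 500. The BMP rise was 2.90, 3.98 and 2.85 log2 in numbers 1 to 3, and smaller, 0.89 to 1.54 log2, in numbers 4 to 6. The call held when any 1 array was left out (adjusted p up to 0.0347), and was lost without the 3 arrays of number 2 (1.93, adjusted p = 0.0680) or number 3 (2.16, adjusted p = 0.0674). With CNTF the level was 10.09 ± 1.04 log2, a difference of 1.63 ± 0.53 or 3.10-fold. This missed the threshold without the block (adjusted p = 0.146) and passed with it (0.0190). Number 1 had the smallest CNTF difference (0.26 log2) and number 3 the largest (2.88 log2). Nrtn was higher in 6 of 6 same-numbered pairs in both comparisons. BMP and CNTF differed by 0.64 ± 0.53 log2 (adjusted p = 0.634), with BMP higher in numbers 1 and 2 by 2.64 and 2.13 and numbers 3 to 6 at -0.03 to -0.42.

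Gdnf, which supports motor and dopaminergic neurons, was dim throughout. Its intensity was 14.3 to 142.1 in the controls (median 23.5), 12.7 to 103.2 with BMP (median 25.7) and 22.8 to 169.8 with CNTF (median 29.1). The ranges of the 3 groups overlapped. The log2 differences were -0.13 ± 0.21 for BMP against control, -0.02 ± 0.21 for CNTF against control and -0.11 ± 0.21 for BMP against CNTF (limma adjusted p = 0.827, 0.992 and 0.881). Their sign changed when single arrays were left out, so no direction is given.

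For the receptors of this family, Gfra1, the co-receptor preferred by GDNF, rose with both treatments, by 0.61 ± 0.17 log2 with BMP (adjusted p = 0.0339) and 0.78 ± 0.17 with CNTF (adjusted p = 0.0137). A second Gfra1 probe set was also called in both comparisons (0.79 and 0.92 log2). The BMP call of the first was lost without any of 8 arrays, namely controls 1, 2, 4 and 5 and BMP arrays 2, 3, 4 and 5 (adjusted p up to 0.0870), under quantile normalization (0.0643) and with only the groups compared (0.0753). Ret and Gfra2, the co-receptor preferred by neurturin, were picked out after their values were seen. Ret was at 8.71 ± 1.26 log2 in the controls, 11.28 ± 1.79 with BMP and 10.57 ± 1.55 with CNTF. Its differences of 2.57 ± 0.79 and 1.86 ± 0.79 missed the threshold without the block (adjusted p = 0.0614 and 0.349) and passed with it (0.000157 and 0.00391), and Ret was higher in 6 of 6 pairs in both. Gfra2 differed by 0.53 ± 0.19 with BMP (adjusted p = 0.123; 0.0655 with the block) and -0.02 ± 0.19 with CNTF (adjusted p = 0.992). Ncam1, an adhesion molecule that also binds GDNF, was higher with BMP than with CNTF by 0.89 ± 0.20 (adjusted p = 0.00966), a call that 2 other Ncam1 probe sets did not share (0.48 and 0.22).

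Among the neurotrophins, Bdnf, which supports neurons and synapses, had 1 probe set above the median of the table. Its intensity was 694.1 to 1123 in the controls (median 935.8), 1050 to 1884 with BMP (median 1560) and 976.4 to 2161 with CNTF (median 1284). The lowest 2 BMP arrays, numbers 5 and 6, lay inside the control range, and so did CNTF arrays 2 and 3. BMP arrays were 0.57 ± 0.19 log2 above the controls, or 1.49-fold, which missed the threshold without the block (limma adjusted p = 0.0803) and passed with it (0.0187). The difference was upward in 6 of 6 pairs, by 0.18 to 0.80 log2. Without BMP array 6 it was 0.65 and was called without the block (adjusted p = 0.0483). CNTF arrays were 0.49 ± 0.19 log2 above the controls (adjusted p = 0.254; 0.0692 with the block), in 5 of 6 pairs.

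The other Bdnf probe set did not show these differences. It lay at 143.5 to 318.3 in the controls, 159.1 to 334.4 with BMP and 206.7 to 366.1 with CNTF. The differences were 0.12 ± 0.17 and 0.20 ± 0.17 log2 against control (limma adjusted p = 0.787 and 0.767). Which Bdnf transcripts each probe set measures was not determined here.

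Ntf3, whose product acts mainly on the receptor TrkC, was dim: 32.1 to 270.7 in the controls (median 125.1), 12.8 to 113.8 with BMP (median 31.5) and 14.4 to 158.5 with CNTF (median 55.9). All BMP arrays lay under the 20th percentile of the table, as did 3 of 6 controls. The BMP difference of -0.61 ± 0.27 log2 was downward in 6 of 6 pairs and was not called (limma adjusted p = 0.223; 0.0700 with the block). The CNTF difference was -0.37 ± 0.27 (adjusted p = 0.716). Of the neurotrophin receptors, Sort1, which binds the proneurotrophins, was higher with BMP than with CNTF by 0.42 ± 0.10 (adjusted p = 0.0105), a difference that its second probe set put at 0.13. Ntrk2, the BDNF receptor TrkB, was picked out after its values were seen. It differed by -0.60 ± 0.37 with BMP (adjusted p = 0.424; 0.0287 with the block) and -0.37 ± 0.37 with CNTF (adjusted p = 0.827), and its 5 probe sets did not point 1 way.

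Of the heparin-binding pair, Mdk, a factor of the developing nervous system that supports neurite growth, rose with BMP. Its intensity was 10340 to 22598 in the controls (median 12894), 17703 to 39461 with BMP (median 23396) and 14858 to 26059 with CNTF (median 18078). Control array 4 was the highest control, above BMP arrays 4, 5 and 6, so the groups overlapped. The other 5 controls lay between 10340 and 17558, below all BMP arrays. The rise was from 13.77 ± 0.44 to 14.56 ± 0.40 log2, or 0.79 ± 0.20 (limma adjusted p = 0.0210; 0.00132 with the block).

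The Mdk difference was 1.16, 0.93, 1.29, -0.18, 0.45 and 1.09 log2 in numbers 1 to 6, upward in 5 of 6. The call was narrow. It was lost without BMP array 1 (0.65, adjusted p = 0.0510), control 3 (0.71, adjusted p = 0.0525) or control 6 (0.71, adjusted p = 0.0551), and without the 3 arrays of number 2, 3 or 6 (adjusted p = 0.106, 0.117 and 0.0742). CNTF arrays were at 14.19 ± 0.28, 0.42 ± 0.20 above the controls in 5 of 6 pairs (adjusted p = 0.429; 0.0926 with the block). The BMP array was above the CNTF array in 6 of 6 pairs, but the difference of 0.37 ± 0.20 was not called (adjusted p = 0.364; 0.0982 with the block).

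Ptn, the relative of Mdk that is made by glia and neural progenitors, was bright on all arrays and was not called. It lay at 59041 to 83259 in the controls (median 67626), 42428 to 72561 with BMP (median 65359) and 46584 to 66048 with CNTF (median 65501). The lowest 2 arrays in each treated group were those of numbers 2 and 3, and the remaining arrays of both treatments lay within the control range. The differences were -0.21 ± 0.13 log2 with BMP and -0.20 ± 0.13 with CNTF (limma adjusted p = 0.439 and 0.653), and the treatments differed by -0.01 ± 0.13 (adjusted p = 0.987). Without the 3 arrays of number 2, the BMP difference was -0.05. Ptprz1, the receptor of both factors, fell by 1.09 ± 0.23 log2 with BMP (adjusted p = 0.00793), in 6 of 6 pairs, and its second probe set, at -0.77, was not called. With CNTF it differed by -0.44 ± 0.23 (adjusted p = 0.514).

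Pdgfa, a mitogen for oligodendrocyte precursors, was lower with BMP than with CNTF. Its intensity was 1525 to 3568 in the controls (median 2101), 862.1 to 1711 with BMP (median 1349) and 1546 to 3889 with CNTF (median 2732). BMP array 6, the highest BMP array, was the only BMP array inside the range of the controls or of the CNTF arrays. The level was 10.48 ± 0.30 log2 with BMP and 11.36 ± 0.48 with CNTF, a difference of -0.88 ± 0.22 (limma adjusted p = 0.0186; 0.000761 with the block). It was downward in 6 of 6 pairs, at -0.13 in number 1 and -0.76 to -1.17 in the other numbers. The call was lost without CNTF array 6 (-0.76, adjusted p = 0.0533) and without the 3 arrays of number 2, 3, 5 or 6 (adjusted p = 0.0678, 0.0527, 0.0904 and 0.0520).

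Against the controls, at 11.14 ± 0.42 log2, Pdgfa with BMP differed by -0.67 ± 0.22, or 1.59-fold lower. It missed the threshold without the block (limma adjusted p = 0.0780) and passed with it (0.00582) and under quantile normalization (-0.72, adjusted p = 0.0438). The difference was -0.11, -0.65, -1.40, -0.90, -0.50 and -0.45 in numbers 1 to 6. With CNTF it was 0.21 ± 0.22 (adjusted p = 0.844). Pdgfra, its receptor, was lower with BMP than with CNTF (-1.51 ± 0.31 log2, adjusted p = 0.00475), also in 6 of 6 pairs.

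**Figure D3:**
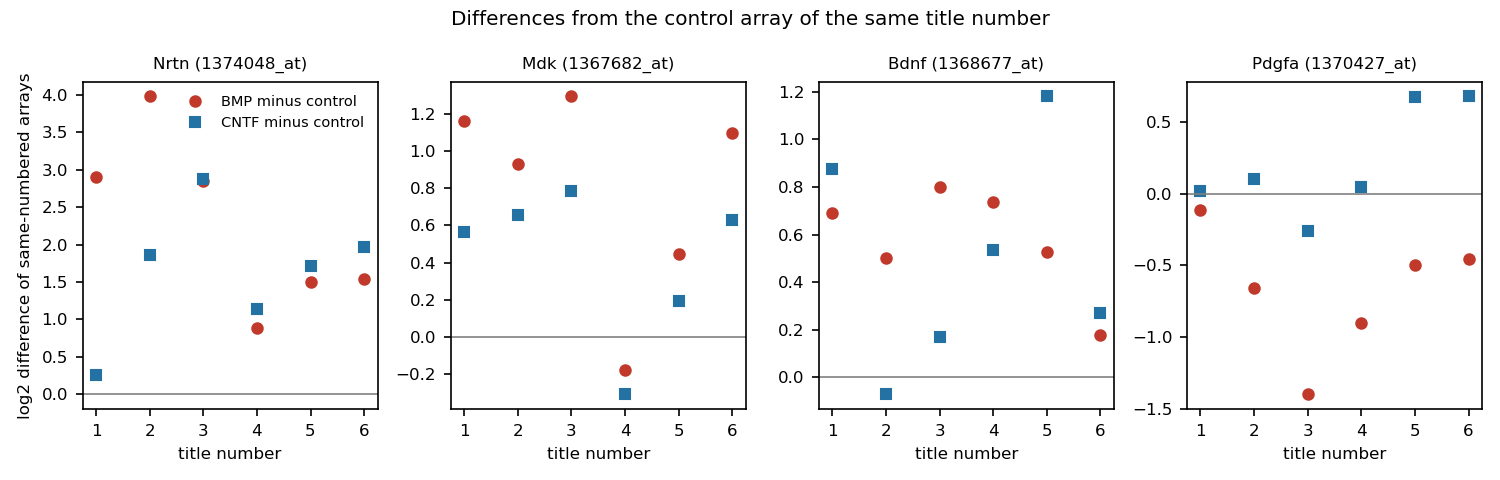
Log2 difference (y axis) from the control array of the same title number (x axis) for Nrtn, Mdk, the brighter Bdnf probe set and Pdgfa, with circles for BMP and squares for CNTF. All 6 BMP circles lie above 0 for Nrtn and Bdnf and below 0 for Pdgfa, and number 4 is the 1 number in which Mdk was lower than in the control with either treatment.

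Fgf1 and Fgf2, mitogens for glia and other cells, were at or near the bottom of the table. Fgf2 lay at 106.9 to 283.2 in the controls (median 161.7), 9.94 to 263.6 with BMP (median 145.9) and 115.3 to 266.9 with CNTF (median 201.5). BMP arrays 2 and 3, at 9.94 and 28.9, were the lowest of the 18. The Fgf2 differences were -0.30 ± 0.25 log2 with BMP, 0.12 ± 0.25 with CNTF and -0.42 ± 0.25 between them (limma adjusted p = 0.594, 0.944 and 0.423).

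The 3 Fgf1 probe sets did not behave alike. The brightest of them was at 20.6 to 284.7 in the controls (median 142.2), 74.4 to 294.6 with BMP (median 211.0) and 8.02 to 180.1 with CNTF (median 25.7). CNTF array 3 was the 1 CNTF array above the 20th percentile of the table. This probe set was higher with BMP than with CNTF by 0.93 ± 0.26 log2 (limma adjusted p = 0.0363; 0.00550 with the block), in 6 of 6 pairs, and differed from the controls by 0.29 ± 0.26 and -0.64 ± 0.26 (adjusted p = 0.629 and 0.308). The call was lost without any of 8 arrays, namely BMP arrays 2, 3 and 5 and CNTF arrays 1, 2, 4, 5 and 6 (adjusted p up to 0.0871), and without the 3 arrays of number 1, 2, 5 or 6 (up to 0.165). The size depended on the pseudocount, at 2.53 with 1 and 0.34 with 500. The other two Fgf1 probe sets gave 0.13 ± 0.23 and -0.11 ± 0.26 in the same comparison (adjusted p = 0.864 and 0.904). All arrays of all 3 probe sets lay below the median of the table, so the call describes a difference between low values.

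The members also differed in how much of their spread followed the groups. Of the log2 sum of squares over the 18 arrays, 51.1% lay between the groups for Nrtn, 50.6% for Pdgfa, 46.5% for Mdk, 44.7% for the brightest Fgf1 probe set and 40.7% for the brighter Bdnf probe set, against a median of 13.8% over all probe sets. The share between title numbers was 28.4% for Nrtn, 32.7% for Pdgfa and 32.6% for Mdk, against a median of 41.3%. The remainder was 20.5%, 16.7% and 21.0%, against a median of 33.4%. Group, number and remainder shares add up to the whole, so a large group share leaves less for the others. The calls rest on the same values as the group shares, so these shares add no support to them. For Ptn the shares were 15.9% between groups and 41.3% between numbers, near the medians of all probe sets. The remaining dim probe sets had between 1.79% (an Fgf1 probe set) and 24.5% (the third Fgf1 probe set) between the groups, with Gdnf at 2.59%. The range over the 18 arrays was 5.06 log2 for Nrtn and 0.97 log2 for Ptn, and the median over all probe sets was 1.20.

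The rest of these pathways was described by 3 lists, each gene by its brightest probe set: receptors (21 of 22 measured), related ligands (19 of 22) and cofactors that carry, cut or process the ligands or carry their signal (22 of 22). With BMP, 1 receptor rose and 2 fell, 2 ligands rose, and 1 cofactor rose and 1 fell. With CNTF, 2 receptors, 3 ligands and 3 cofactors rose and none fell by its brightest probe set. The receptor Pdgfrb, picked out after its values were seen, had dimmer probe sets at -0.05 and -1.04 log2 with CNTF, and 1 of these was called. Of all probe sets 6.01% were called with BMP, 2.32% with CNTF and 6.23% between the treatments. The median log2 difference of the receptors, ligands and cofactors was 0.31, 0.19 and 0.15 with BMP and -0.02, 0.003 and 0.01 with CNTF, beside 0.01 and -0.01 over all probe sets. Between the treatments, 2 receptors were higher and 2 lower with BMP than with CNTF, as were 2 and 1 ligands and 1 and 4 cofactors. With the block, 6 receptors rose and 4 fell with BMP, 4 ligands rose and 0 fell, and 5 cofactors rose and 3 fell (16.7% of all probe sets called). With CNTF these were 3 and 1 receptors, 3 and 0 ligands, and 4 and 2 cofactors (7.57% of all). Between the treatments they were 3 and 4 receptors, 2 and 2 ligands, and 5 and 5 cofactors (15.1% of all).

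The ligands that rose with BMP were Fgf9, an FGF made by neurons (0.63 ± 0.15 log2, limma adjusted p = 0.0123; 0.64 for its second probe set, not called), and Pdgfd (1.21 ± 0.34, adjusted p = 0.0417). Those that rose with CNTF were Fgf10 (2.49 ± 0.23, adjusted p = 2.02e-06), Fgf18 (1.39 ± 0.32, adjusted p = 0.0214) and Pdgfc, another ligand of Pdgfra (1.16 ± 0.30, adjusted p = 0.0466). With BMP, Fgf10 and Fgf18 were also higher in 6 of 6 pairs (0.75 ± 0.23 and 0.97 ± 0.32). They missed the threshold (adjusted p = 0.0558 and 0.0768; 0.00780 and 0.0522 with the block). Pdgfc was at 0.14 ± 0.30 with BMP (adjusted p = 0.870). Fgf18 was not called between the treatments (-0.41 ± 0.32, adjusted p = 0.593). Between the treatments Fgf9 and Pdgfd were higher with BMP (0.65 ± 0.15 and 1.58 ± 0.34) and Fgf10 was lower (-1.74 ± 0.23; adjusted p = 0.0101, 0.00782 and 0.000105). The second Fgf9 probe set was also called in this comparison (0.73). The Fgf18, Pdgfc and Pdgfd calls against the controls were lost when 1 array was left out. For Fgf18 these were CNTF arrays 4, 5 and 6 (adjusted p up to 0.0599), and for Pdgfd with BMP they were controls 1, 2, 4 and 5, BMP arrays 1, 2, 3, 4 and 6 and CNTF array 5 (up to 0.102). For Pdgfc they were controls 1, 2, 4, 5 and 6, CNTF arrays 2 to 6 and BMP array 6 (up to 0.120). With a pseudocount of 1 the Pdgfc and Pdgfd calls were also lost (adjusted p = 0.0508 and 0.106), as was Pdgfc without the intensity trend (0.0604) and Pdgfd with only the groups compared (0.0873). The differences of the dim ligands depended on the pseudocount. With 1 and with 500, Fgf18 was at 3.32 and 0.56 with CNTF, and Pdgfd at 1.98 and 0.60 with BMP and at 2.86 and 0.75 between the treatments. Fgf10 was at 1.67 with CNTF with 500.

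Among the receptors, Pdgfra fell by 1.80 ± 0.31 log2 with BMP (limma adjusted p = 0.00162), and Fgfrl1, an FGF receptor without a kinase domain, rose with CNTF by 1.45 ± 0.20 (adjusted p = 0.000300). Fgfrl1 was also lower with BMP than with CNTF (-1.02 ± 0.20, adjusted p = 0.00384). The cofactors include the heparan sulfate sulfatases Sulf1 and Sulf2. Sulf1 rose with CNTF (2.74 ± 0.48, adjusted p = 0.00286; 3.47 with a pseudocount of 1 and 1.85 with 500). With BMP it was 1.39 ± 0.48 higher, in 6 of 6 pairs (adjusted p = 0.101; 0.00637 with the block). Between the treatments it differed by -1.36 ± 0.48 (adjusted p = 0.114; 0.00756 with the block). Its second probe set was at 0.98 with CNTF, also called, and 0.23 with BMP, not called. Sulf2 fell with BMP (-0.86 ± 0.15, adjusted p = 0.00220) and was lower with BMP than with CNTF (-0.90 ± 0.15, adjusted p = 0.00121). The heparan sulfate proteoglycan Sdc4 rose with CNTF (1.79 ± 0.26, adjusted p = 0.000449) and was lower with BMP than with CNTF (-1.43 ± 0.26, adjusted p = 0.00194).

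Of the other cofactors, Sdc2 rose with BMP (0.71 ± 0.18 log2, limma adjusted p = 0.0222), a call lost without BMP array 2 or 3 (up to 0.0617) and not shared by its other probe sets (0.47 and 0.31). Hs2st1, a heparan sulfate sulfotransferase, rose with CNTF (0.93 ± 0.19, adjusted p = 0.00980). This rise was no longer called without the arrays of number 2, 3, 5 or 6 (adjusted p up to 0.0877). The other Hs2st1 probe sets were also called, with CNTF (1.03 and 0.78) and between the treatments (-0.79 and -0.78). The leave-out results given here are those of its brightest probe set. Between the treatments Gpc3, a glypican, was higher with BMP (1.53 ± 0.35, adjusted p = 0.0107; 0.30 for its second probe set, not called), and Hs2st1 and the FGF carrier Fgfbp1 were lower (-0.69 ± 0.19 and -0.69 ± 0.18, adjusted p = 0.0350 and 0.0295). The last 2 calls were lost when 1 array was left out. For Hs2st1 these were BMP arrays 1, 2, 3, 5 and 6 and CNTF arrays 2, 3, 5 and 6 (up to 0.0904), and for Fgfbp1 they were BMP arrays 1, 3 and 4 and CNTF arrays 1, 2 and 3 (up to 0.0665). Hs2st1 was also lost without the intensity trend (adjusted p = 0.0514) and with only the groups compared (0.0825), and Fgfbp1 with a pseudocount of 1 (-1.84, adjusted p = 0.0510).

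**Figure D4:**
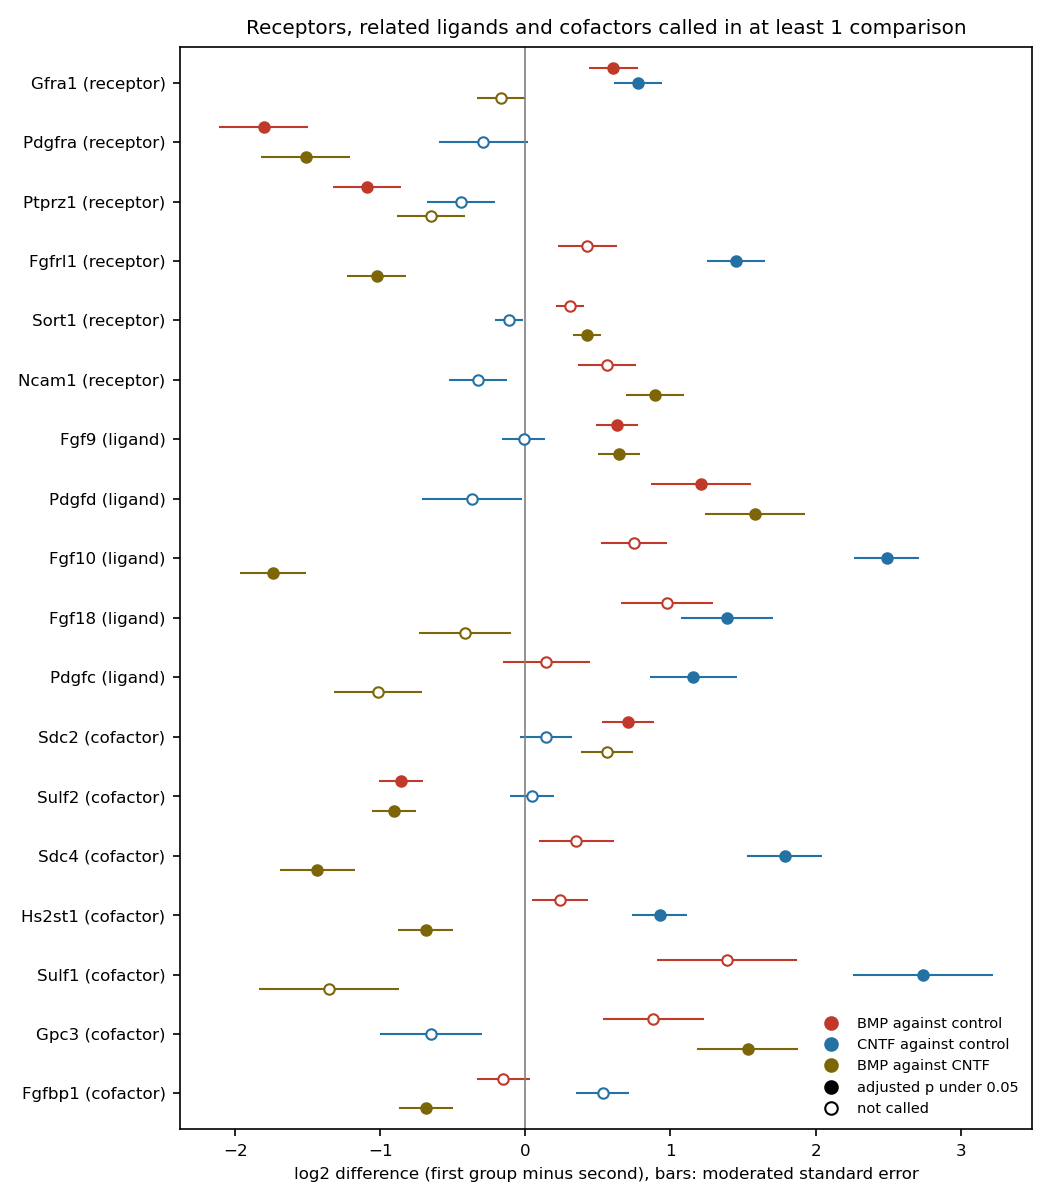
Log2 differences (x axis, bars are moderated standard errors) in the 3 comparisons for the receptors, related ligands and cofactors called in at least 1 of them, with filled points for an adjusted p under 0.05. Pdgfra and Ptprz1 lie furthest down with BMP (-1.80 and -1.09), and Sulf1 and Fgf10 lie furthest up with CNTF (2.74 and 2.49).

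Markers of cell types moved with the same comparisons, and in bulk RNA fewer cells of a type and less RNA per cell cannot be told apart. Of 5 oligodendrocyte precursor markers, Pdgfra among them, 5 fell with BMP. Their summed intensity was 78616 to 112868 in the controls, 10176 to 71755 with BMP and 59225 to 88460 with CNTF. Of 5 measured oligodendrocyte markers 2 fell with BMP (sums 55568 to 161798 in the controls, 13565 to 75742 with BMP and 67378 to 184474 with CNTF). Of 6 fibroblast and smooth muscle markers 2 rose with BMP (sums 1812 to 7110, 7456 to 59487 and 1480 to 9182 in the same order). In BMP arrays 1 to 3, where the Nrtn rise was largest, these sums were 38241, 59487 and 31721, and in BMP arrays 4 to 6 they were 7456, 14572 and 15798. This split was picked out after the values were seen. The precursor sums were 10176, 34748 and 23728 in BMP arrays 1 to 3 and 39859, 40342 and 71755 in BMP arrays 4 to 6. Nrtn was also higher with CNTF in 6 of 6 pairs. There the fibroblast and smooth muscle sums in numbers 1 to 6 were 1480, 7401, 9182, 3546, 5870 and 7074. In the controls they were 1812, 3416, 4615, 3509, 5768 and 7110. Of 7 neuron markers 2 rose and 1 fell with BMP (sums 17063 to 29943, 18121 to 46827 and 19602 to 39097). Of 8 astrocyte markers 1 rose with BMP and 1 with CNTF (sums 152738 to 236289, 156632 to 279293 and 217568 to 334478). No marker was listed at 0 on any array, and 0 of 6 microglial and 0 of 3 measured endothelial and 0 of 3 measured Schwann cell markers had a mean above the median of the table in any group. The Schwann cell marker Pmp2, picked out after its values were seen, rose with CNTF (limma adjusted p = 0.0266), and the sums of these 3 were 459.9 to 805.9 in the controls, 665.4 to 1619 with BMP and 703.6 to 1709 with CNTF. In the blocked fit of BMP against control, for neurons 5 markers rose and 1 fell, 4 fibroblast and smooth muscle markers rose, 5 precursor and 3 oligodendrocyte markers fell and 2 astrocyte markers rose, where 16.7% of all probe sets were called with the block and 6.01% without. With CNTF it called 3 neuron, 2 astrocyte, 1 oligodendrocyte, 1 fibroblast or smooth muscle and 1 Schwann cell marker higher, and 1 astrocyte and 1 precursor marker lower, where 7.57% of all were called with the block and 2.32% without. For BMP against CNTF, 3 precursor and 3 oligodendrocyte markers were lower with BMP and 2 fibroblast or smooth muscle markers higher. Of the neuron markers 2 were higher and 1 lower, and no other marker was called. With the block, 4 precursor, 3 oligodendrocyte, 1 neuron and 1 astrocyte marker were lower. Higher were 4 neuron, 3 fibroblast or smooth muscle and 2 astrocyte markers. Here 15.1% of all probe sets were called with the block and 6.23% without. The part of these cell types in the differences of Nrtn, Mdk and Pdgfa was not tested.

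The genes whose levels followed each bright member most closely were found by Pearson correlation over the 18 arrays, among 9087 genes with a mean intensity above the median of the table. Each was picked as 1 of the 3 highest, all values share the same arrays and scaling, and r contains the group differences, so no p is given. Pdgfa had the closest followers: Dgat2, an enzyme of triglyceride synthesis (r = 0.952), the membrane skeleton protein Epb41l2 (0.946) and Stxbp3 (0.921). After group means were removed these were 0.927, 0.914 and 0.901. For Nrtn they were the mitochondrial enzyme Sqor (0.908), the myosin light chain kinase Mylk (0.896) and Pyurf (0.873), with 0.865, 0.811 and 0.757 within groups. For Mdk they were Borcs8 (0.882), the copper chaperone Ccs (0.834) and the adaptor Nck2 (0.820), with 0.773, 0.724 and 0.784 within groups. For Ptn they were the transcription factor Etv1 (0.818), glutamine synthetase Glul (0.812) and the microtubule linker Clip2 (0.808), with 0.816, 0.803 and 0.769 within groups. For Bdnf they were Mab21l1 (0.816), Efcab7 (0.775) and Lrrc14 (0.767), with 0.786, 0.655 and 0.668 within groups.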

How the data were processed

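RNA of 18 rat spinal cord arrays (6 control, 6 BMP, 6 CNTF) was analysed. The authors deposited linear probe set intensity values (31099 per array, 0.404 to 162940); the summary method is not given in the sources used here. Trimmed means (2% at each end) were 2500.7 to 2500.8 on all arrays, array medians 666.5 to 817.2, and the deposited scaling was kept. The number of arrays limits the precision. Replicate arrays correlated at 0.954 to 0.982 and no 2 were identical.

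Leaving out 57 control probe sets left 31042: 20826 had 1 gene symbol in the platform annotation, 436 several and 9780 none, and no symbol changed on matching to RefSeq. Values were tested as log2(intensity + 116.655) with limma 3.58.1 in R 4.3.3 (group means, all 18 arrays, empirical Bayes with intensity trend, two-sided, Benjamini-Hochberg over all probe sets, called under 0.05). The fit was first checked on simulated data with independent noise on each array. The simulated data had no shared effect of title number, so they do not give the error rate for these arrays. Standard errors are limma's moderated ones.

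The title numbers were taken to pair arrays: deviations from group means correlated in all 18 same-numbered pairs (r 0.121 to 0.491), and every array correlated best with its own number. The labels do not say what the numbers mark. The members and lists were chosen with earlier results of these data known. Named genes were all members, listed receptors, ligands and cofactors called in any comparison, the 3 closest followers of each bright member, and any gene said to be picked after its values were seen. Alternatives were the replicate block, pseudocounts of 1 and 500, quantile normalization, leaving out probe sets with a mean under the 40th percentile, no trend, only the groups compared, and leaving out each array or title number. For the named list genes, the alternatives other than the block were added after seeing the data.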

Additional observations from a re-analysis of the deposited data

Results flagged for a closer look

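Within the 36 groups of 6 arrays of the 12 probe sets, 4 had 1 array set apart, by Dixon's test of the gap to its nearest neighbour as a share of the group's log2 range. Chance marks about 1 in 20 such groups if the values are normally spread. That rate was not checked for dim probe sets, whose low values lie close together on this log2 scale. For Gdnf these were BMP array 6 (intensity 103.2, gap 0.738 of the range) and CNTF array 5 (169.8, gap 0.838). For Fgf1 these were BMP array 1 on 1 probe set (172.2, gap 0.817) and CNTF array 3 on the brightest probe set (180.1, gap 0.648). All 4 were the highest of their group, and all lay below the median of the table.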

How the results depend on the processing

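Counts over all probe sets stayed within 1.5 times in the settings that kept all 18 arrays, except with the replicate block, which called 5176 for BMP against control, 2349 for CNTF against control and 4686 for BMP against CNTF in place of 1865, 721 and 1934. It called 4 member probe sets with BMP and 1 with CNTF in place of 2 and 0. Leaving out dim probe sets removed Fgf1 from the BMP against CNTF calls and left 1. The block changed no other member call. When 1 array or 1 title number was left out, the counts over all probe sets ranged from 740 (without number 2) to 2097 (without BMP array 4), 366 (without number 5) to 795 and 1111 (without number 2) to 1985. The member counts ranged from 0 to 3, 0 to 0 and 0 to 2. Member differences near 0 changed sign. Gdnf with CNTF was 0.093 with a pseudocount of 1, and Ptn between the treatments was 0.032 under quantile normalization. The leave-out ranges of the differences that changed sign were -0.23 to 0.15 (CNTF), -0.24 to 0.018 (BMP) and -0.23 to 0.099 (BMP against CNTF) for Gdnf, and -0.081 to 0.090 for Ptn between the treatments. For Bdnf between the treatments they were -0.032 to 0.23 and -0.17 to 0.047, and for Fgf2 with CNTF -0.0069 to 0.22. For the Fgf1 probe sets they were -0.054 to 0.24 and -0.26 to 0.11 between the treatments, -0.34 to 0.065 with BMP and -0.19 to 0.21 with CNTF. The Nrtn, Mdk and Pdgfa differences kept their direction in all settings run. Of 27 calls of named receptors, ligands and cofactors, 7 were lost without some array and 15 without some title number. Calls that held without each array but not without each number were Fgf9 (lost without 2 or 3) and Ptprz1 (2) with BMP. With CNTF they were Gfra1 (2 or 4) and Hs2st1 (2, 3, 5 or 6). Between the treatments they were Fgf9 (3), Gpc3 (2 or 3), Ncam1 (5) and Sort1 (5). The cause of these changes was not tested.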
